A study of Mus musculus with 25 samples.

Results

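The results describe 9 genes of transforming growth factor beta (TGF-beta) signalling in mouse hearts. These are the ligand genes Tgfb1, Tgfb2, Tgfb3 and Inhba, the latent TGF-beta binding protein gene Ltbp2, the receptor genes Tgfbr1 and Tgfbr2, the feedback inhibitor gene Smad7 and the stress-induced ligand gene Gdf15. They were taken by name from a count table of 56941 genes. All 9 passed the filter on low counts, together with 17682 genes in all, so that each was tested in every comparison.

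TGF-beta is secreted in a latent form, tied to the extracellular matrix by latent TGF-beta binding proteins, and becomes active when integrins, proteases or thrombospondin-1 release it. Active ligand binds the type II receptor (Tgfbr2), which recruits and phosphorylates the type I receptor (Tgfbr1), and the type I receptor phosphorylates Smad2 and Smad3. In the heart this pathway is best known for turning fibroblasts into matrix-producing myofibroblasts under pressure or neurohormonal load, and Smad7 is among its own targets and limits it.

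RNA was sequenced from 25 hearts in 6 groups set by 2 genotype labels and 3 treatment labels. The WT hearts comprised 4 with no pump, 6 with saline and 3 given Ang/PE. The hearts labelled MCT1KO comprised 3 with no pump, 4 with saline and 5 given Ang/PE. Slc16a1 encodes MCT1, a membrane carrier of lactate, pyruvate and ketone bodies. The labels give no age, sex, strain, dose or duration, do not spell out Ang/PE, and do not say how MCT1 was removed or in which cells.

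Library totals ran from 12216704 to 24880683 counts. Slc16a1 was at 150 to 249 counts per 1000000 (CPM) in the 13 WT hearts and at 132 to 223 CPM in the 12 hearts labelled MCT1KO, so its RNA did not separate the genotypes and every genotype direction given here rests on the label. The female-specific RNA Xist was present in 2 of 4, 1 of 6 and 3 of 3 WT hearts (no pump, saline, Ang/PE) and in 0 of 3, 3 of 4 and 4 of 5 hearts labelled MCT1KO. The hearts carried cardiac muscle RNA throughout, with 5 of 5 cardiomyocyte markers detected in each group and a summed level of 30890 to 57563 CPM. Atrial markers (Myl4, Myl7, Sln) summed to at most 5.73 CPM in every no-pump and Ang/PE heart, but reached 1136 CPM among WT saline and 3679 CPM among MCT1KO saline hearts. Adipose markers reached 40.2 CPM among WT saline and 1447 CPM among MCT1KO saline hearts, against at most 1.32 CPM elsewhere. Not every saline heart carried this RNA: WT saline replicate 1 (2.03 and 0.523 CPM, atrial and adipose) and MCT1KO saline replicate 3 (1.5 and 1.75 CPM) were near the levels of the other groups. The part of this RNA in the levels of the 9 genes was not tested beyond a fit with both scores as covariates.

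Expressed per kilobase of merged exon (RPKM, that is CPM divided by length), the 9 genes fell into a wide order of levels. Smad7 and Tgfbr2 had the highest medians over the 25 hearts, at 9.91 and 9.38 RPKM, and their ranges overlapped almost fully (7.11 to 12.7 and 7.75 to 13.8 RPKM). Tgfb3 followed at 6.65, Tgfb1 at 5.63 and Tgfbr1 at 4.58 RPKM, again with overlapping ranges. Tgfb2 had a median of 2.09, Ltbp2 of 1.31, Gdf15 of 0.810 and Inhba of 0.391 RPKM. The order was not the same in every heart, because Ltbp2 reached 27.4 RPKM in 1 heart, above the highest level of any other of the 9 genes.

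The genes differed as much in spread as in level. Within groups, the SD of log2 CPM was 0.15 for Tgfb1, 0.19 for Smad7 and 0.20 for Tgfbr2, below the median of 0.26 over all tested genes. It was 1.39 for Ltbp2 and 1.08 for Gdf15, which put them at the 99.6th and 99th percentile of the tested genes. Tgfb2 and Inhba lay near the 90th percentile, at 0.58 and 0.59.

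**Figure D1:**
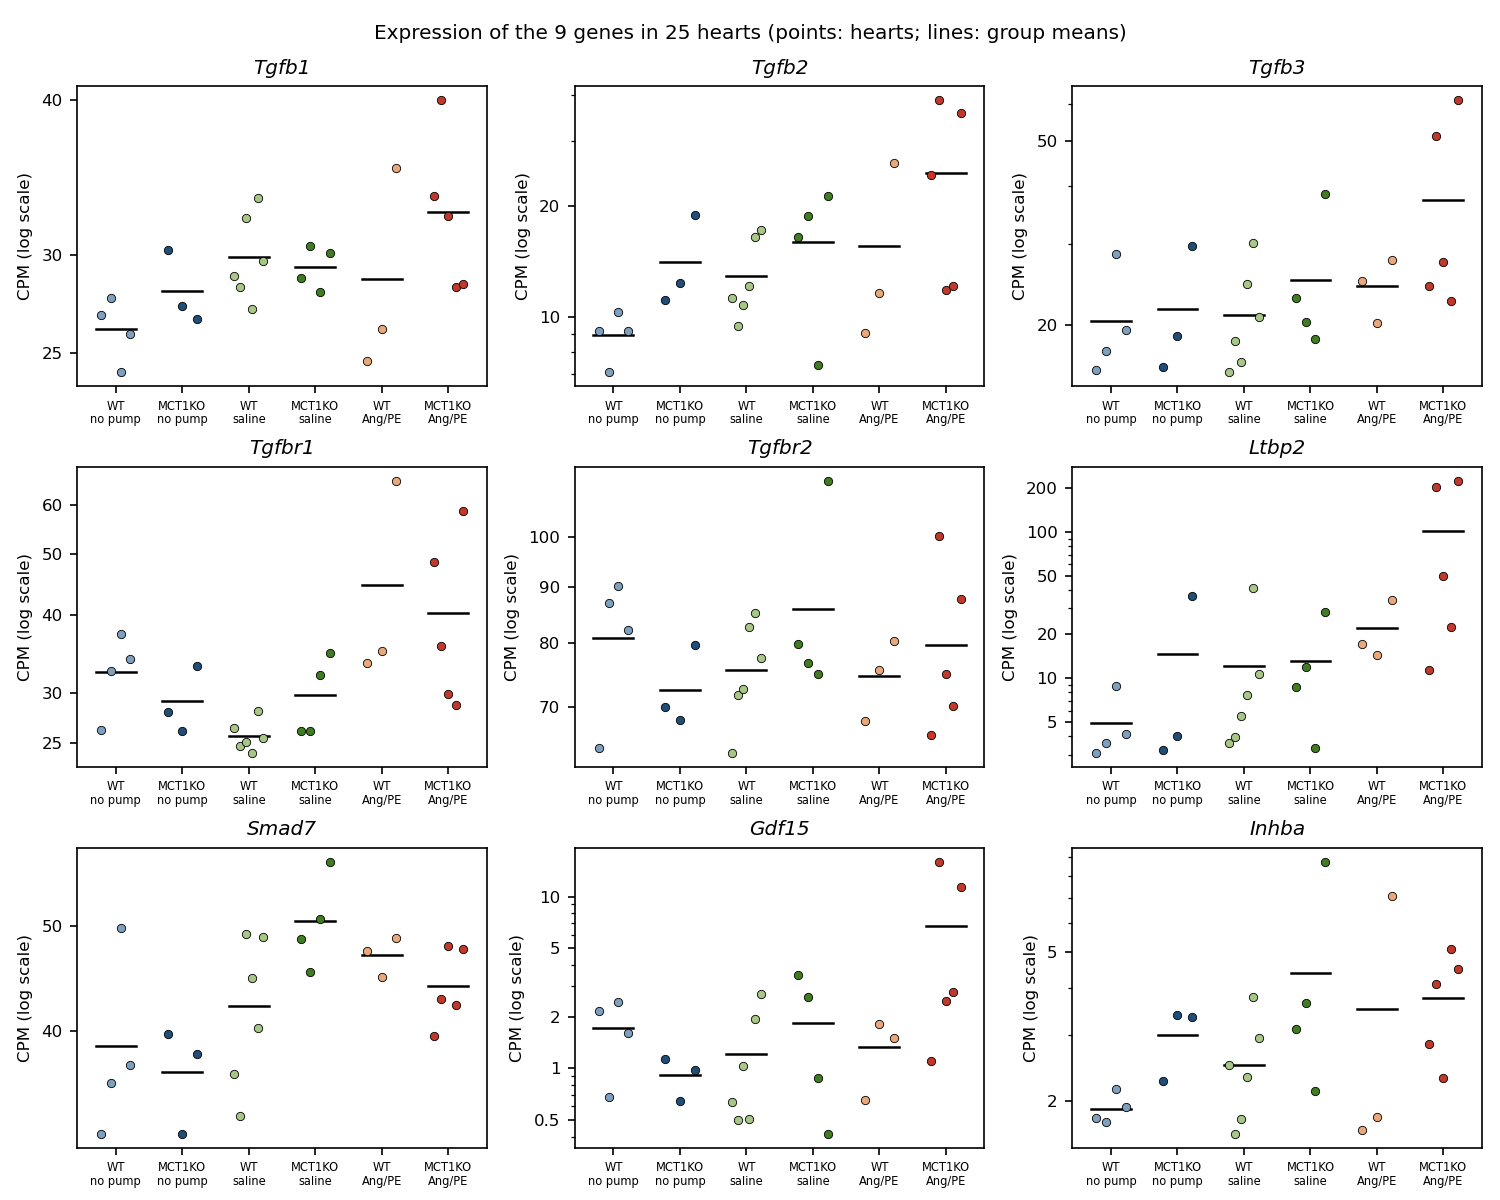
Expression of the 9 genes in each of the 25 hearts, as CPM on a log axis, by genotype label and treatment; points are hearts and lines are group means. Ltbp2, Tgfb2, Tgfb3 and Gdf15 reach their highest values in 2 of the 5 MCT1KO hearts given Ang/PE, while Tgfb1, Tgfbr2 and Smad7 stay within a 1.78-fold range over all hearts.

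In the edgeR quasi-likelihood test, 0 of the 9 genes reached an adjusted p below 0.05 in any of the 11 comparisons. For Ang/PE against saline, the share of all tested genes that passed was 0.017% in WT hearts and 4.46% in hearts labelled MCT1KO. For Ang/PE against no pump it was 0% and 0.503%, and for saline against no pump 6.61% and 0.00566%. Between the genotypes it was 0% without a pump, 0% with saline and 0% with Ang/PE. In the tests of whether a treatment difference itself differed between genotypes, it was 0% for Ang/PE against saline and 0.00566% for saline against no pump.

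At an unadjusted p below 0.05, the members counted were close to the background in most comparisons. For Ang/PE against saline, 1 of 9 passed in WT hearts (Tgfbr1; background 19.1%) and 3 of 9 in hearts labelled MCT1KO (Tgfbr1, Ltbp2 and Gdf15; background 20.4%). Against no pump, Ang/PE gave 1 of 9 in WT hearts (Tgfbr1; background 9.02%) and 4 of 9 in hearts labelled MCT1KO (Tgfb3, Tgfbr1, Ltbp2 and Gdf15; background 13.1%). Saline against no pump gave 0 of 9 in WT hearts, where the background was 24.3%, and 1 of 9 in hearts labelled MCT1KO (Smad7; background 12.1%). Between genotypes the counts were 0 of 9 without a pump (background 12.2%), 2 of 9 with saline (Smad7 and Inhba; background 17%) and 1 of 9 with Ang/PE (Gdf15; background 6.92%). Neither interaction had a member below 0.05, against backgrounds of 13.5% for Ang/PE and saline and 17.2% for saline and no pump. The median log2 difference of the 9 genes between Ang/PE and saline was 0.20 in WT and 0.44 in MCT1KO hearts, where the median of all tested genes was -0.01 in both. The comparisons that share a group of hearts are not independent of each other.

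**Figure D2:**
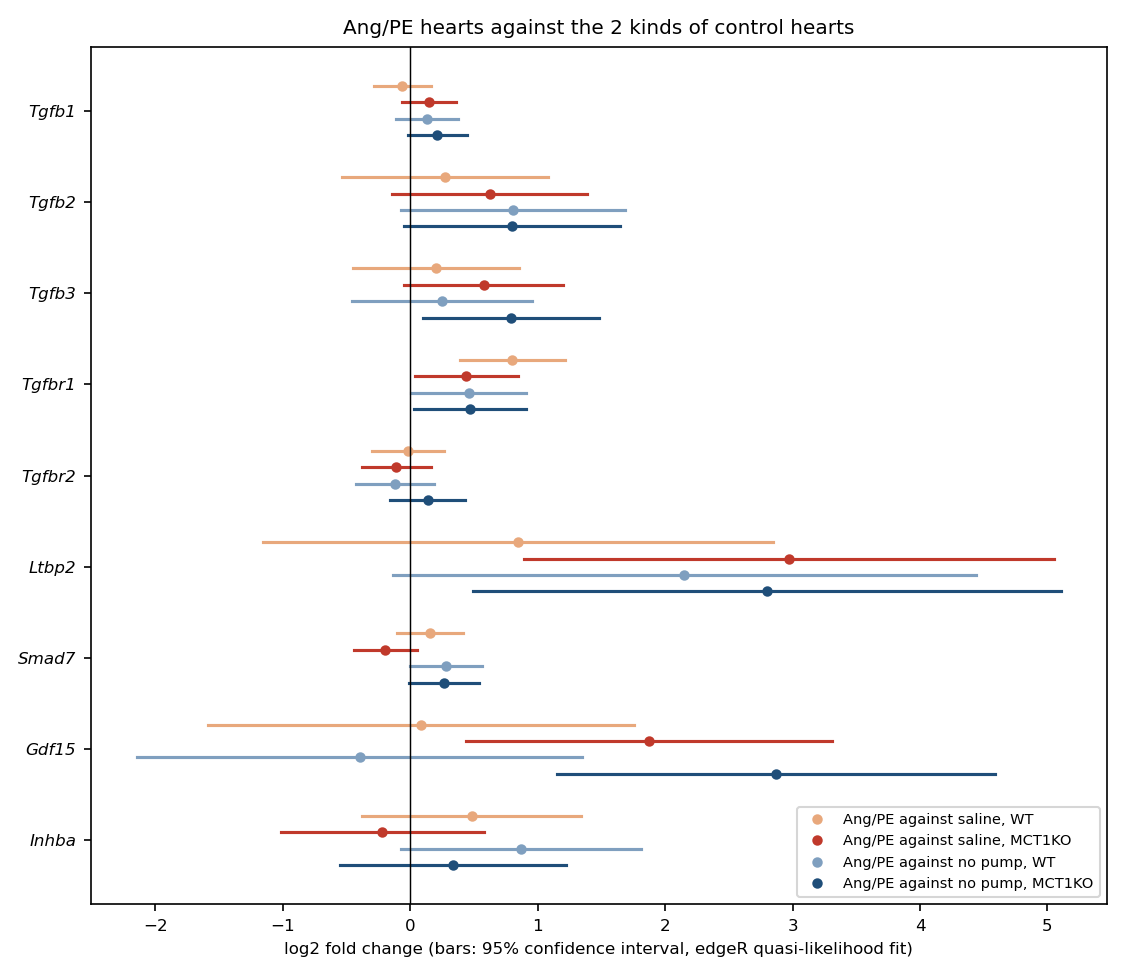
Log2 fold changes of the 9 genes for Ang/PE against saline and against no pump in each genotype, with 95% confidence intervals from the edgeR fit. The intervals of Ltbp2 and Gdf15 are several times wider than those of Tgfb1, Tgfbr2 and Smad7, and Tgfbr1 lies above 0 in all 4 comparisons.

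Among the ligands, Tgfb1 (ENSMUSG00000002603), the isoform most often linked to cardiac fibrosis, varied least. It was at 24.6, 26.1 and 35.2 CPM in the 3 WT Ang/PE hearts and at 27.1 to 33.3 CPM (median 29.2) in the 6 WT saline hearts. In hearts labelled MCT1KO it was at 33.5, 40.0, 32.2, 28.3 and 28.4 CPM with Ang/PE and at 28.7, 30.5, 28.0 and 30.1 CPM with saline. The groups overlapped in both genotypes, and the log2 differences of Ang/PE from saline were -0.06 (SE 0.11) and 0.15 (SE 0.10). The 95% intervals ran from -0.29 to 0.16 and from -0.07 to 0.36 on the log2 scale.

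Tgfb2 (ENSMUSG00000039239), an isoform with key roles in heart valve development, was lowest in WT no-pump hearts, at 9.11, 7.06, 10.3 and 9.11 CPM. Without a pump it was at 11.1, 12.3 and 18.9 CPM in hearts labelled MCT1KO, all above the WT hearts, but the log2 difference of 0.67 (SE 0.42) had an edgeR adjusted p of 0.543. The share of all tested genes with every MCT1KO heart above every WT heart in that comparison was 5.07%. With Ang/PE, Tgfb2 was at 24.1, 38.8, 11.8, 12.1 and 35.7 CPM in MCT1KO hearts, and with saline at 16.5, 18.7, 7.37 and 21.2 CPM. Replicates 1, 2 and 5 of the Ang/PE group were above every saline heart and the other two were within its range, giving a log2 difference of 0.62 (SE 0.37), or 1.39 (edgeR adjusted p 0.632) with the atrial and adipose scores as covariates. In WT hearts the difference was 0.27 (SE 0.39), with Ang/PE replicate 3 alone at 26.2 CPM and the others at 9.01 and 11.6 CPM; without that heart it was -0.31, and with both scores 0.78 (adjusted p 0.886).

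Tgfb3 (ENSMUSG00000021253), the third isoform, was high in 2 of the 5 MCT1KO Ang/PE hearts. Replicates 2 and 5 were at 51.1 and 61.4 CPM and the others at 24.2, 27.3 and 22.5 CPM. Saline hearts of that genotype were at 22.9, 20.3, 18.7 and 38.4 CPM, and no-pump hearts at 16.2, 18.9 and 29.7 CPM, so the low Ang/PE hearts lay among both control groups. The log2 difference was 0.58 (SE 0.30) from saline and 0.79 (SE 0.33) from no pump, with an edgeR adjusted p of 0.296 for the latter. With the atrial and adipose scores as covariates the difference from saline was 1.18 (adjusted p 0.601). In WT hearts Ang/PE gave 24.9, 20.2 and 27.7 CPM within the saline range of 15.8 to 30.1 CPM, a log2 difference of 0.20 (SE 0.31).

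Inhba (ENSMUSG00000041324), which encodes the subunit of activin A, was the least abundant of the 9 genes per length. Its highest value was 8.73 CPM in MCT1KO saline replicate 4, followed by 7.07 CPM in WT Ang/PE replicate 3, and the lowest was 1.63 CPM. Without a pump, MCT1KO hearts were at 2.26, 3.40 and 3.35 CPM, all above the WT range of 1.75 to 2.15 CPM, as were 5.07% of all tested genes, with a log2 difference of 0.65 (SE 0.45) that did not pass (edgeR adjusted p 0.591). With saline, the log2 difference of the genotypes was 0.82 (SE 0.37, edgeR adjusted p 0.269) and the groups overlapped; it was 0.25 without MCT1KO saline replicate 4. That heart also had the highest summed adipose markers. Between Ang/PE and saline, Inhba had log2 differences of 0.48 (SE 0.41) in WT and -0.22 (SE 0.39) in MCT1KO hearts, which turned to -0.51 without WT Ang/PE replicate 3 and 0.35 without MCT1KO saline replicate 4.

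Ltbp2 (ENSMUSG00000002020), a matrix protein of the latent TGF-beta binding protein family, had the widest range of the 9 genes, 73.0-fold from 3.07 to 224 CPM. The MCT1KO Ang/PE hearts were at 11.3, 202, 50.1, 22.3 and 224 CPM, and the saline hearts of that genotype at 8.66, 11.9, 3.31 and 28.3 CPM. Replicates 2, 3 and 5 were above every saline heart and replicates 1 and 4 were within the saline range. The fitted log2 difference was 2.97 (SE 1.00), with an edgeR adjusted p of 0.0947, and 4.76 (adjusted p 0.601) with the atrial and adipose scores as covariates. DESeq2 gave 2.98 with an adjusted p of 0.0182, the only one of the 8 alternatives and 25 single omissions to call it, and called 5.94% of the genes it tested. In libraries from heart tissue, more cells of a type and more RNA per cell cannot be told apart.

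Against no pump, the MCT1KO difference of Ltbp2 was 2.80 (SE 1.10, edgeR adjusted p 0.266). The no-pump hearts were at 3.24, 4.04 and 36.3 CPM, and without replicate 3 the difference was 4.82. In WT hearts, Ltbp2 was at 17.1, 14.4 and 34.3 CPM with Ang/PE, all above the no-pump values of 3.07, 3.61, 8.89 and 4.18 CPM, where 3.63% of all tested genes were separated in that direction; the log2 difference of 2.15 (SE 1.09) had an adjusted p of 0.574. The WT saline hearts ran from 3.60 to 41.6 CPM (median 6.60) and spanned the Ang/PE values, and the difference from saline was 0.85 (SE 0.96). It was 1.79 without WT saline replicate 5, the heart at 41.6 CPM, and 2.15 (edgeR adjusted p 0.891) with the atrial and adipose scores. The MCT1KO and WT responses to Ang/PE relative to saline differed by 2.12 (SE 1.38) on the log2 scale, with an edgeR adjusted p of 0.500.

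Activated fibroblast markers were high in the same hearts. Summed over Postn, Cthrc1, Acta2, Comp and Meox1, all 5 detected in every group, they were at 253, 1101, 285, 294 and 831 CPM in MCT1KO Ang/PE replicates 1 to 5, against 158 to 444 CPM with saline and 93.8 to 209 CPM without a pump. In WT hearts the ranges were 186 to 262, 102 to 233 and 116 to 205 CPM. In the edgeR test of Ang/PE against saline in MCT1KO-labelled hearts, 3 of the 5 markers passed, all higher, where 4.46% of all tested genes passed. Markers of fibroblasts in general (Col1a1, Pdgfra, Dcn, Tcf21, Lum) were at 707, 1385, 795, 734 and 1214 CPM in the same 5 hearts, and 0 of 5 passed. The part of these cells in the Ltbp2, Tgfb2 and Tgfb3 values was not tested.

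Of the receptors, Tgfbr1 (ENSMUSG00000007613), the type I kinase, had the smallest p of any member. In WT hearts it was at 33.5, 35.0 and 65.5 CPM with Ang/PE and at 24 to 28.1 CPM (median 25.3) with saline, so every Ang/PE heart was above every saline heart, as were 6.39% of all tested genes. The log2 difference was 0.80 (SE 0.20, 1.74-fold), with an unadjusted p of 0.000538 and an edgeR adjusted p of 0.0652. It was 0.43 without WT Ang/PE replicate 3. DESeq2 (adjusted p 0.0111) and a fit of these groups alone (0.0325) called it; with Xist as a covariate the difference was 0.95 (adjusted p 0.239), and all 3 Ang/PE hearts but 1 of the 6 saline hearts had Xist RNA. The adjusted p over the 8 alternatives ran from 0.0111 to 0.886.

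The WT no-pump hearts had Tgfbr1 at 26.2, 32.5, 37.2 and 33.9 CPM, 3 of 4 above every saline heart. Ang/PE differed from no pump by 0.46 (SE 0.22, edgeR adjusted p 0.541), or by 0.09 without replicate 3 of the Ang/PE group. Hearts labelled MCT1KO were at 48.5, 35.7, 29.9, 28.7 and 58.5 CPM with Ang/PE, 26.1, 26.0, 32.1 and 34.8 CPM with saline, and 28.0, 26.1 and 33.1 CPM without a pump. Ang/PE replicates 1, 2 and 5 were above all of these controls. The log2 difference was 0.44 (SE 0.20, adjusted p 0.203) from saline and 0.47 (SE 0.21, adjusted p 0.339) from no pump.

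Tgfbr2 (ENSMUSG00000032440), the ligand-binding type II receptor, showed no comparable difference. It ran from 63.5 to 113 CPM over the 25 hearts, with a log2 difference of Ang/PE from saline of -0.02 (SE 0.14, 95% interval -0.30 to 0.27) in WT and -0.11 (SE 0.13, -0.38 to 0.16) in MCT1KO hearts. All pairs of groups overlapped. The WT interval of Tgfbr1 for the same comparison was 0.39 to 1.21; the difference between the 2 receptors was not tested.

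Smad7 (ENSMUSG00000025880), the inhibitory Smad that competes for the activated type I receptor and recruits ubiquitin ligases to it, was highest in MCT1KO saline hearts. These were at 48.7, 45.4, 50.8 and 57.3 CPM, all above the MCT1KO no-pump hearts at 39.7, 32.2 and 38.1 CPM, as were 4.67% of all tested genes. Xist RNA was present in 3 of 4 of these saline hearts and 0 of 3 of the no-pump hearts. The log2 difference of Smad7 was 0.46 (SE 0.14), with an edgeR adjusted p of 0.177. With Xist as a covariate it was 0.42 (edgeR adjusted p 0.285), and with the atrial and adipose scores 0.32 (0.999). Between genotypes with saline it was 0.26 (SE 0.11, adjusted p 0.253), with WT hearts at 33.4 to 49.2 CPM. Ang/PE differed from saline by 0.16 (SE 0.13) in WT and -0.20 (SE 0.12) in MCT1KO hearts, and the interaction was -0.35 (SE 0.17, adjusted p 0.374).

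Gdf15 (ENSMUSG00000038508), a distant member of the TGF-beta family that injured and stressed cells secrete, was near its detection limit in most hearts. It had 7 to 229 counts per heart. In MCT1KO Ang/PE hearts it was at 1.10, 16, 2.47, 2.77 and 11.4 CPM, and in the other 20 hearts at most 3.49 CPM. Replicates 2 and 5, which were also highest for Ltbp2, Tgfb2 and Tgfb3, stood above all others, and the other three lay among the control hearts. The log2 difference from saline was 1.87 (SE 0.69, edgeR adjusted p 0.125) and from no pump 2.87 (SE 0.83, adjusted p 0.117). DESeq2 called the latter, at 2.88 and an adjusted p of 0.0211.

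In WT hearts, Gdf15 was at 0.656, 1.82 and 1.5 CPM with Ang/PE, and the log2 difference from saline was 0.08 (SE 0.80), or 1.84 (edgeR adjusted p 0.886) with the atrial and adipose scores. The genotypes differed by 2.38 (SE 0.81) under Ang/PE, with an edgeR adjusted p of 0.692. Leaving out MCT1KO Ang/PE replicate 2 gave 1.28 for the MCT1KO difference from saline, 2.28 for that from no pump and 1.79 for that between genotypes. The interaction of genotype and Ang/PE against saline was 1.79 (SE 1.06, adjusted p 0.454).

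The start-site flanks of Tgfbr1, Ltbp2 and Gdf15 are shown because these 3 had the smallest p for Ang/PE against saline. Each is the 250 bases before the annotated start in RefSeq (build GRCm38.p6), 5′ to 3′ on the gene's strand, at chr4:47352972-47353221 (plus), chr12:84876492-84876741 (minus) and chr8:70632457-70632706 (minus). Capitals mark the Smad-binding box CAGAC or its reverse complement.
Tgfbr1: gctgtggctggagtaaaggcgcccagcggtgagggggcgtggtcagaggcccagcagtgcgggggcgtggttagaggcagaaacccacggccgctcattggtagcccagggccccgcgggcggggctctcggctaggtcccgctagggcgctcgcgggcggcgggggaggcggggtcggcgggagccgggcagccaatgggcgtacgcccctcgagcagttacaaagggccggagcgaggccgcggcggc
Ltbp2: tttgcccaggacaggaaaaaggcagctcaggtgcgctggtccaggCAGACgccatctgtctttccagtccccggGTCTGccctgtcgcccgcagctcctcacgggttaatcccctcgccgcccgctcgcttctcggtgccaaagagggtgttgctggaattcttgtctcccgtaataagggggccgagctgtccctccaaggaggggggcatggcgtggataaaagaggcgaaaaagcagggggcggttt
Gdf15: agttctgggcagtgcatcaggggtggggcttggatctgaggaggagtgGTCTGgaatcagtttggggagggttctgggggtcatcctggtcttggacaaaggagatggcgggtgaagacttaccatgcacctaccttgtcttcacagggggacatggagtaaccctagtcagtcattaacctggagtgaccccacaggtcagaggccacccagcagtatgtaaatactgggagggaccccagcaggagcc
Of the 9 genes, 7 had an entry (not Tgfb3 and Smad7). CAGAC, searched on both strands, occurred 2 times for Ltbp2 and Tgfb2, 1 time for Gdf15 and Tgfbr2, and 0 times for Tgfb1, Tgfbr1 and Inhba. It occurs in 42.2% of all 32851 windows of this length, so its presence here is a description only. The AP-1 site TGANTCA, found in 6.75% of windows, and the ATF4 site TGATGNAA, found in 3.45%, were not among these letters in any of the 7 windows.

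Single hearts carried much of the spread in several genes at once. MCT1KO Ang/PE replicate 2 ranked among the 5 highest of 25 hearts for 8 of the 9 genes, and replicate 5 for 7. MCT1KO saline replicate 4 did so for 5 and WT Ang/PE replicate 3 for 4, while replicates 1, 3 and 4 of the MCT1KO Ang/PE group did so for 3, 2 and 2. The only gene not among the 5 highest in MCT1KO Ang/PE replicate 2 was Smad7. How often these hearts ranked so high over all tested genes was not computed. The counts therefore describe the hearts and do not set the 9 genes apart.

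Across the 25 hearts, log2 CPM of Ltbp2 was compared with that of the other 8 genes, with permutation p-values adjusted over the 8 relations. The hearts come from 6 groups, and both genes of a pair share a library. Hearts were permuted without regard to group, so a small p can also come from differences between groups. No p was computed after the group means were taken out. Tgfb3 was closest, with Pearson's r of 0.918 and Spearman's rho of 0.891 (adjusted permutation p 8e-05 for both, the smallest 100000 permutations allow after adjustment), and r was 0.838 without MCT1KO Ang/PE replicates 2 and 5. After the group means were taken out, r was 0.909. Tgfb2 had r of 0.793 and rho of 0.692 (adjusted permutation p 8e-05 and 0.00068), and r of 0.627 without those 2 hearts. For Gdf15, r was 0.650 and rho 0.432 (adjusted permutation p 0.00171 and 0.0413). Without those 2 hearts r was 0.275, so much of that r came from them, and rho was not computed without them. The other 5 genes had r between 0.406 (Smad7) and 0.599 (Inhba), with adjusted permutation p-values of r from 0.00356 to 0.0433. The share of all tested genes with such an r or p to Ltbp2 was not computed. Whether these relations are particular to the 8 genes was thus not tested. The adjusted permutation p of rho was 0.104 for Tgfb1 and 0.0903 for Smad7, which did not pass. After the group means were taken out, r of these 2 genes was 0.224 and 0.392. It was 0.791 for Tgfbr2, 0.702 for Tgfb2, 0.565 for Inhba, 0.536 for Gdf15 and 0.375 for Tgfbr1.

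**Figure D3:**
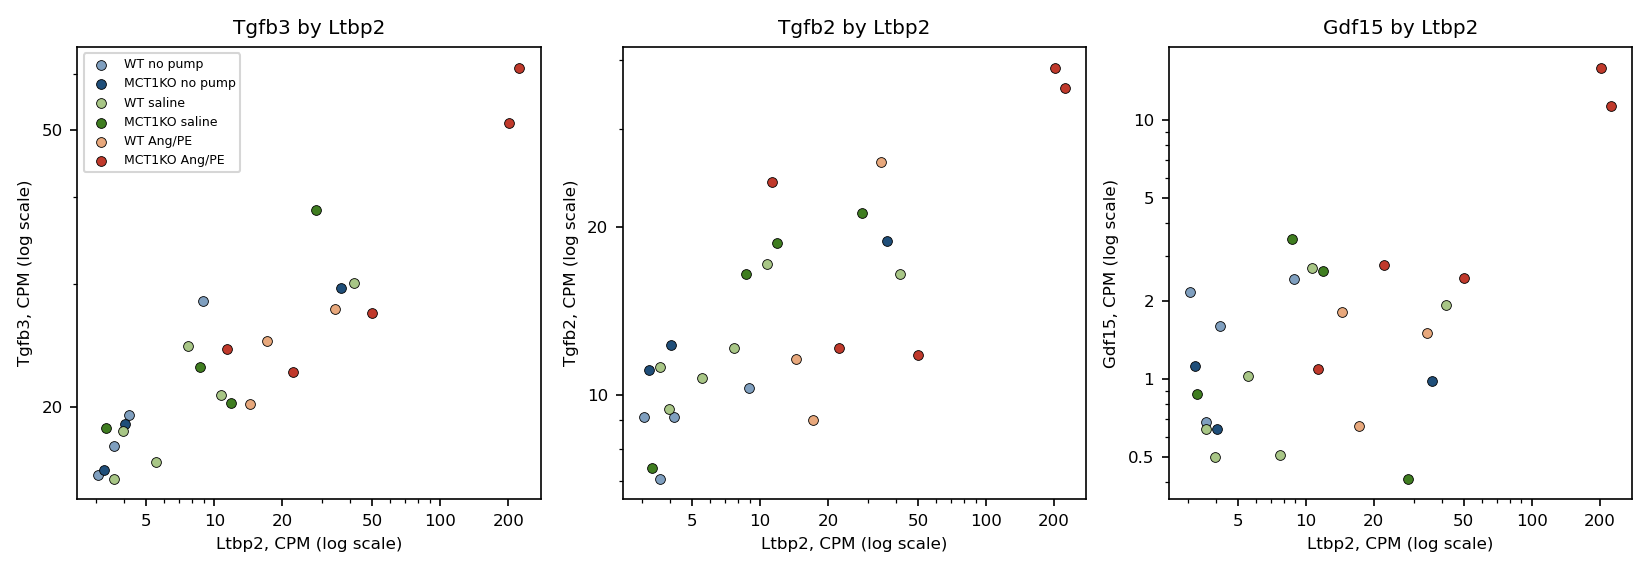
CPM of Tgfb3, Tgfb2 and Gdf15 against CPM of Ltbp2 in the 25 hearts, on log axes, coloured by group. Tgfb3 follows Ltbp2 over the whole range (r 0.918), whereas Gdf15 is high in the 2 hearts with most Ltbp2 and scattered in the rest (r 0.275 without them).

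The tested genes most like each member over the 25 hearts, by Pearson's r of log2 CPM, are given as a description. For Ltbp2 they were the collagen genes Col12a1 (r 0.969), Col11a1 (0.942) and Col8a2 (0.939), and for Tgfb3 they were Itgbl1 (0.944), the matrix proteoglycan gene Bgn (0.918) and Ltbp2 itself (0.918). Tgfb2 was closest to Rtn4 (0.911), Tgfbr1 to Tiam2 (0.900) and Medag (0.882), and Tgfbr2 to Ctsz (0.926), the protease inhibitor gene Timp2 (0.914) and the mesenchymal filament gene Vim (0.910). Gdf15 was closest to Prmt2 (0.828), Meox1 (0.822) and Uchl1 (0.819), which dropped to 0.592, 0.606 and 0.550 without MCT1KO Ang/PE replicates 2 and 5. For Tgfb1, Smad7 and Inhba the closest genes were Spsb4 (0.805), Unc5c (0.808) and Rab27b (0.843).

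Of 15 tested genes that release or hold latent TGF-beta, 1 rose and 0 fell with Ang/PE against saline in MCT1KO-labelled hearts, where 4.46% of all tested genes passed. Thrombospondin-1 (Thbs1), a matrix glycoprotein that activates latent TGF-beta, was at 284, 240, 64.2, 93.2 and 130 CPM in MCT1KO Ang/PE hearts and at 25.6, 24.6, 22.9 and 29.7 CPM in MCT1KO saline hearts. It rose by 2.66 on the log2 scale (SE 0.68, edgeR adjusted p 0.0301). In WT hearts Ang/PE replicate 3 was at 410 CPM and the others at 26.9 and 26.0 CPM, within the saline range of 13 to 35.6 CPM. The MCT1KO call ended without MCT1KO saline replicate 1, 2 or 4 or Ang/PE replicate 1, 2 or 5, with values of 2.35 to 2.85 over all 25 omissions and an adjusted p of up to 0.127. For Ang/PE against no pump 1 of the 15 rose in hearts labelled MCT1KO (background 0.503%), the fibrillin gene Fbn2, by 1.38 (SE 0.32, edgeR adjusted p 0.0452). A positive difference was found in 13 of 15, with a median of 0.42 against 0.00 for all tested genes. Saline against no pump in that genotype gave 14 of 15 a positive difference, with a median of 0.25. The Fbn2 call ended in 14 single omissions and with Xist as a covariate.

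Among 19 other receptors and Smads, 0 rose and 3 fell with Ang/PE against saline in MCT1KO-labelled hearts (background 4.46%). Smad2, a receptor-activated Smad, was at 28.7, 29.8, 28.7, 28.3 and 30.6 CPM with Ang/PE. It was at 33.4, 35.5, 33.6 and 40.4 CPM with saline and at 36.1, 41.1 and 34.7 CPM without a pump. It fell by 0.29 on the log2 scale (SE 0.07, edgeR adjusted p 0.0235) against saline and by 0.35 (SE 0.08, adjusted p 0.0346) against no pump. The betaglycan gene Tgfbr3, a co-receptor, fell by 0.41 (SE 0.10, adjusted p 0.0223). Both calls against saline ended without MCT1KO saline replicate 4, where the log2 differences were -0.23 for Smad2 and -0.26 for Tgfbr3. The Smad2 call against no pump ended with any 1 of 6 hearts left out (MCT1KO no-pump replicates 1 and 2, Ang/PE replicates 1, 2, 4 and 5). It also ended with Xist as a covariate, where 11 of all tested genes were called in that comparison, against 89 without it. Xist RNA was present in 0 of 3 no-pump and 4 of 5 Ang/PE hearts of that genotype. The third, Acvr1c, was at 41.2 CPM in MCT1KO saline replicate 4 and at most 0.419 CPM in the Ang/PE hearts. In WT hearts, saline against no pump gave 2 of 19 risen and 0 fallen, where 6.61% of all tested genes passed: Smad3, the other receptor-activated Smad of this pathway (0.56, SE 0.13, adjusted p 0.0168), and the activin receptor gene Acvr1b (0.35, SE 0.10, adjusted p 0.0349). The Smad3 call ended without WT no-pump replicate 2, 3 or 4 and that of Acvr1b with any 1 of 7 WT hearts left out.

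Of 15 tested other ligands and ligand traps, 0 rose and 2 fell with Ang/PE against saline in MCT1KO-labelled hearts (background 4.46%). Bmp2, a bone morphogenetic protein, was at 0.637 to 1.19 CPM with Ang/PE and at 1.19 to 3.66 CPM with saline, and fell by 1.44 (SE 0.31, edgeR adjusted p 0.0141); without MCT1KO saline replicate 4 it was at -1.27 and not called. Bmp10, a ligand made in atrial muscle, was at 0.0625 to 167 CPM in MCT1KO saline and 0.116 to 236 CPM in WT saline hearts, and at most 0.224 CPM in every other heart, as were the atrial markers low there. Among 14 intracellular regulators of the pathway, the ubiquitin ligase gene Smurf2 rose by 0.29 (SE 0.08, edgeR adjusted p 0.0435) with Ang/PE against saline in MCT1KO hearts. It was the 1 call of the 14 (background 4.46%), which 19 single omissions ended. In WT hearts Smurf2 was at 65.3, 71.2 and 84.3 CPM with Ang/PE and at 53.8 to 60.2 CPM with saline. Every WT Ang/PE heart was thus above every WT saline heart, as were 6.39% of all tested genes. WT no-pump hearts had Smurf2 at 63.3 to 69.7 CPM, which was also above the saline range and overlapped the Ang/PE hearts. In WT hearts, saline against no pump left Smurf1 higher by 0.33 (SE 0.10, adjusted p 0.0447) and the deubiquitinase gene Usp15 lower, at -0.30 (SE 0.09, adjusted p 0.0493), 2 of 14 where the background was 6.61%; 13 and 15 omissions ended these calls.

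Among 24 tested textbook targets of TGF-beta, 2 rose and 0 fell with Ang/PE against saline in MCT1KO-labelled hearts (background 4.46%), and 0 passed in WT hearts (0.017%). Periostin (Postn), a matrix protein of activated fibroblasts, was at 74.0, 548, 159, 77.9 and 492 CPM with Ang/PE and 56.1, 60.0, 44.2 and 107 CPM with saline, again highest in replicates 2 and 5. It rose by 2.02 (SE 0.57, edgeR adjusted p 0.0498). The cell cycle inhibitor gene Cdkn1a, also a p53 target, rose by 1.82 (SE 0.50, edgeR adjusted p 0.0443), from 15 to 34.4 CPM with saline to 49.7 to 136 CPM with Ang/PE. In WT hearts, Postn was at 79.8, 79.4 and 159 CPM with Ang/PE and at 24.6 to 69.2 CPM with saline. Cdkn1a was at 52.8, 73.3 and 149 CPM in WT Ang/PE hearts and at 9.28 to 23.3 CPM in WT saline hearts. For both genes every WT Ang/PE heart was above every WT saline heart, as were 6.39% of all tested genes. WT no-pump hearts had Postn at 27.3 to 64.9 CPM, below every WT Ang/PE heart, a separation found for 3.63% of all tested genes. They had Cdkn1a at 18.2 to 95.8 CPM, which overlapped the WT Ang/PE hearts. Leaving out single hearts ended the Postn call in 23 of 25 cases and the Cdkn1a call in 15. In WT hearts Cdkn1a fell by 1.82 (SE 0.46, adjusted p 0.0261) with saline against no pump, a call that ended without WT no-pump replicate 2 or 3 or saline replicate 2 or 4. Against no pump, Ang/PE in MCT1KO hearts gave 20 of 24 targets a positive difference and a median of 0.88. All tested genes had a median of 0.00 there, and 0 of the 24 targets passed (background 0.503%). An unadjusted p below 0.05 was reached by 14, where 13.1% of all tested genes did so. Saline against the same no-pump hearts gave 19 of 24 a positive difference, with a median of 0.56. For Ang/PE against saline in that genotype, 17 of 24 were positive and the median was 0.13.

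Of 14 tested genes that respond to cellular stress alongside Gdf15, 0 passed with Ang/PE against saline in either genotype. The background was 0.017% in WT and 4.46% in MCT1KO-labelled hearts, so 0 of 14 does not set this list apart. Their median log2 difference was 0.19 in WT and -0.28 in hearts labelled MCT1KO, so the list as a whole did not have the positive sign of Gdf15 in the latter. For Ang/PE against no pump in hearts labelled MCT1KO, 13 of 14 had a positive difference, with a median of 0.30. In that comparison 0 passed the test (background 0.503%). Saline against no pump in that genotype also gave 13 of 14, with a median of 0.51 and 0 past the test (background 0.00566%). Trp53inp1, a p53-induced gene, fell by 0.88 (SE 0.18, edgeR adjusted p 0.0104) with saline against no pump in WT hearts. It was the 1 call of the 14 there (background 6.61%), and was not called without WT no-pump replicate 3. Each of the 18 calls on these lists ended with at least 1 heart left out. No low-count filter ended 13 of them, a fit of only the groups compared 10, RLE factors 1, and DESeq2 and a non-robust fit 0. With the atrial and adipose scores as covariates 16 of them ended, 11 with Xist as a covariate and 13 with the replicate number as a block. These 16 were all in Ang/PE against saline (MCT1KO) or saline against no pump (WT). With both scores 0 of 17682 tested genes were called in either comparison, so the ending of these 16 calls is not particular to them. With Xist, 3.58% and 3.1% of all tested genes were called there, and 3.02% and 2.98% with the block. The shares were 1.21% and 1.37% without the low-count filter, and 0.00632% and 13.8% with only the groups compared.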

How the data were processed

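RNA from 25 hearts was depleted of ribosomal RNA and made into strand-specific libraries, per the labels' protocols. The deposited table holds raw read counts per Ensembl gene for every heart. The submitters' processing notes name cutadapt 1.16, STAR 2.7.9a, featureCounts 1.6.3, DESeq2 1.42.1 and the builds GRCm39 and mm39; the annotation release and strand setting are not given in the sources used here.

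Counts were tested with edgeR 4.0.16 in R 4.3.3: filterByExpr by group (minimum count 10, minimum total 15), TMM factors, 1 model of 6 groups over all 25 hearts, glmQLFit (robust) and glmQLFTest, two-sided, with Benjamini-Hochberg adjustment over 17682 genes within each of 11 comparisons and calls below 0.05. CPM are counts per 1000000 of TMM-scaled library size. SEs derive from the F statistic. Lengths and symbols came from GENCODE M21 (51948 genes with a symbol; 0.778% of counts had none) and flanks from RefSeq.

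The 9 members and the lists were chosen with earlier results of these data known. All members are named; of each list, the called genes are (at most 4 of smallest p per comparison); likeness names the 3 genes of highest r (log2 CPM, prior count 2), some left out of the text for length. Alternatives were RLE factors, DESeq2 1.42.0, no low-count filter, only the groups compared, the replicate block, a non-robust fit, covariates for Xist and for atrial and adipose markers, and leaving out each heart. Within-group library pairs (43) had a chi-square per degree of freedom of at least 3.33, so no library was a copy. Over 30 same-numbered pairs the deviations correlated at -0.0069 on average. Means by comparison ran from -0.157 to 0.101, and the highest single pair was at 0.405. The average gave no sign that numbers pair hearts, but it cannot exclude pairing.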

Additional observations from a re-analysis of the deposited data

Results flagged for a closer look

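In groups of 4 to 6 hearts, the highest and lowest log2 CPM of each of the 9 genes were compared with the nearest other heart (36 group and gene pairs). In 1 pair a heart stood apart by Dixon's criterion: Tgfbr2 in MCT1KO saline replicate 4, at a log2 CPM of 6.817 with the nearest heart at 6.321, a gap of 0.848 of the group's range. Chance flags about 1 in 20 such groups, so 1 of 36 is no more than chance gives. In CPM the heart was at 113 and the other three at 75.0 to 79.8. The same heart had the highest summed adipose markers (1447 CPM), atrial markers (3679 CPM) and mesothelial markers (108 CPM) of all 25, and fibroblast markers of 1148 CPM against 764 to 821 CPM in the rest of its group. The part of these in its Tgfbr2 level was not tested.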

How the results depend on the processing

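The count of the 9 members called, 0 in each of 11 comparisons, became 1 in WT hearts (Ang/PE against saline) with DESeq2 and with only the groups compared (Tgfbr1; 4.18% and 5.69% of all genes called), 1 for the same comparison in MCT1KO hearts with DESeq2 (Ltbp2; 5.94%), 1 for Ang/PE against no pump in MCT1KO hearts with DESeq2 (Gdf15; 2.24%) and 1 in WT hearts for saline against no pump with only the groups compared (Tgfbr1; 13.8%). Leaving out single hearts gave 0 to 1 members for WT Ang/PE against saline; the 1 was Tgfbr1, without WT Ang/PE replicate 1, MCT1KO saline replicate 3 or MCT1KO Ang/PE replicate 1. With the replicate number as a block, 0 members were called in every comparison. For Ang/PE against saline the block moved Ltbp2 from 2.97 to 2.13 in MCT1KO and from 0.85 to 2.02 in WT hearts. Whether the numbers pair hearts was not settled.

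Of 27 gene and comparison pairs followed, 19 kept their sign in all 8 alternatives and 25 omissions. For Ang/PE against saline, WT log2 differences turned for Tgfb1 (-0.06; 0.034 with the atrial and adipose scores; -0.22 to 0.037 over omissions), Tgfb2 (0.27; -0.31 to 0.55 over omissions), Tgfbr2 (-0.02; 0.079 with the block, 0.048 with Xist, 0.088 with the scores; -0.065 to 0.044), Gdf15 (0.08; -0.16 with Xist, 1.84 with the scores; -0.22 to 0.50) and Inhba (0.48; -0.51 to 0.83). In MCT1KO hearts they turned for Tgfbr2 (-0.11; 0.25 with the scores; -0.21 to 0.042) and Inhba (-0.22; 0.92 with the scores; -0.45 to 0.35). Inhba between genotypes with saline went from 0.82 to -0.056 with the scores. On the pathway lists, the scores turned Acvr1c (Ang/PE against saline, MCT1KO) to 2.29 and Bmp10 (saline against no pump, WT) to -0.46. The cause was not tested.

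Groups of 3 to 6 hearts limit these tests: the 95% interval of Ltbp2 for Ang/PE against saline ran from 0.89 to 5.05 in MCT1KO and from -1.15 to 2.84 in WT hearts. Gdf15 rested on as few as 7 counts in a heart. The number of all genes called moved widely. For Ang/PE against saline it was 3 in WT hearts (649 with DESeq2, 945 with only those groups, 1 to 316 over omissions) and 788 in MCT1KO hearts (1180 with DESeq2, 1 with only those groups, 0 with the scores, 534 with the block, 39 to 1541 over omissions). For MCT1KO Ang/PE against no pump it was 89 (381 with DESeq2, 11 with Xist, 1 to 226), and for WT saline against no pump 1168 (1902 with DESeq2, 527 with the block, 0 with the scores, 60 to 2234).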
